A study of Mus musculus with 12 samples.

Results

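The genes described here are 10 inflammatory cytokines and chemokines of the mouse: Il1a, Il1b, Tnf, Il6, Il18, Ccl2, Ccl3, Ccl4, Cxcl10 and Cxcl16. They were chosen by name, not by a threshold on a measured value, and all 10 were found among the 54532 genes of the deposited table. The study profiled RNA of the lateral septum, a forebrain nucleus, in 12 bulk libraries labelled wild type (WT) and day 3. Of these, 6 were labelled saline and 6 CFA. In work on pain CFA usually stands for complete Freund's adjuvant, an oil emulsion with killed mycobacteria that causes lasting inflammation where it is injected. The series title names microglial TIA1, NF-kB and chronic inflammatory pain, and the design compares CFA with saline. The labels used here give no sex, age, site of injection or animal for a library. Separate animals are not stated, and the p-values below thus reflect the scatter of these 12 samples, some of which may be technical. In bulk tissue, fewer cells of a type and less RNA per cell cannot be told apart.

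Interleukin 1 alpha and beta, tumour necrosis factor (TNF) and interleukin 6 are alarm cytokines that microglia, the resident macrophages of the brain, can switch on through NF-kB, a transcription factor released by Toll-like, IL-1 and TNF receptors. Interleukin 18 is made as a precursor that caspase-1 cuts in the inflammasome. CCL2, CCL3 and CCL4 draw monocytes and other leukocytes, CXCL10 is an interferon-induced ligand of CXCR3, and CXCL16 is a membrane-bound chemokine that proteases shed. Many of these mRNAs carry AU-rich elements in their 3' untranslated regions, where proteins such as TTP (Zfp36) and TIA1 act on decay or translation.

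The sequences below are shown because they hold the letters through which such transcripts are known to be switched on and removed. First are the 250 bases before the RefSeq start (build GRCm38.p6) of Cxcl10 and Ccl3, the members whose groups stood farthest apart below, and of Il6 for comparison. RefSeq windows were found for 7 of the 10 members (not Ccl2, Ccl4 and Cxcl16). Capitals mark matches, on either strand, to the NF-kB consensus or to GAAANNGAA, the core of the interferon-stimulated response element.

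Cxcl10, chr5:92348890-92349139, minus strand: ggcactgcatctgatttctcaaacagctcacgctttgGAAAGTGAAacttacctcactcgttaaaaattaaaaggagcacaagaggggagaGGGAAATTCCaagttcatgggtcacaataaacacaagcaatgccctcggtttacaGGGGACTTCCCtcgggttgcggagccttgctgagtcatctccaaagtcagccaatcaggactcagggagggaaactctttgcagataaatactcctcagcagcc

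Ccl3, chr11:83649379-83649628, minus strand: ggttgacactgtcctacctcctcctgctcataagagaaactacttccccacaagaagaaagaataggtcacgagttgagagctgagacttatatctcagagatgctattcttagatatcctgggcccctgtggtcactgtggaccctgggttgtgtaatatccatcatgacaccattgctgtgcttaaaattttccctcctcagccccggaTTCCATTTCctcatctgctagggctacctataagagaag

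Il6, chr5:30012864-30013113, plus strand: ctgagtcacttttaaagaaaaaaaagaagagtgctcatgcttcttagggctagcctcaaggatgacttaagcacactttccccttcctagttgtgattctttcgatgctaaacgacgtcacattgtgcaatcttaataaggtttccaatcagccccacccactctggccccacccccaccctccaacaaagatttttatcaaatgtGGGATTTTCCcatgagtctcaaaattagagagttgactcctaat

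The Cxcl10 window held 3 matches to the NF-kB consensus, 159, 104 and 103 bases before the start, of which the last pair overlap, and 1 match to GAAANNGAA at 213 bases. The Il6 window held 1 NF-kB match at 44 bases. The Ccl3 window held 1 match to GAAANNGAA at 39 bases, on the opposite strand, and 0 to the NF-kB consensus. The windows of Il1a, Il1b, Il18 and Tnf, not shown, held 0 matches to either. Of 32851 RefSeq windows of the same length, 7.25% held the NF-kB consensus and 7.13% held GAAANNGAA on either strand. The TATA box letters TATAAA lay 29 bases before the start of Tnf, 31 before that of Il1b and 32 before that of Il1a. In Il18 they lay 175 bases before the start, on the opposite strand, and 12.4% of all windows held them on either strand. A match is a string of letters and no evidence of binding.

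In the next 4 sequences, 30-base windows of 3' untranslated regions from GENCODE M21 transcripts on GRCm38, capitals mark the AU-rich pentamer ATTTA.

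Tnf: ATTTAttATTTATTTAttATTTATTTAttt

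Il1b: ATTTATTTAtgtATTTAttgattggttgat

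Ccl3: ATTTAATTTAatcctattggtttaatacta

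Il6: ATTTAttgataATTTAaataagtaaacttt

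Tnf had 8 copies of ATTTA in a 3' untranslated region of 764 bases, Il6 had 6 in 427 bases, Ccl3 had 5 in 409 bases and Il1b had 4 in 459 bases. The density was 14.1 copies per kb in Il6, 12.2 in Ccl3 and 10.5 in Tnf, and it was lowest among the members in Cxcl16, at 1.41. The median over the 10 members was 7.38 copies per kb, beside a median of 1.17 over 20755 coding genes. Short regions raise such a density: Il18 had 1 copy in 123 bases and Ccl2 had 1 in 275 bases. The median count over those coding genes was also 1. The longer element TTATTTATT, which TTP is known to bind, was present in 1 member, Tnf, and in 7.12% of those genes. These counts are a description and were not tested.

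Depth was 33.6 to 38.4 M recovered reads per saline library and 35.5 to 39.2 M per CFA library. Reads were recovered because FPKM (fragments per kilobase of gene, scaled for library depth) times gene length moved in whole steps within each library, and 100% of the results were whole numbers to within 0.01 read. Low read numbers were mostly even. Of 106140 gene and library values from 1 to 20 reads, 64.7% were even, with 24286 values of 2 reads and 11962 of 1 read, and among the members the even share was 79.2% of 48 values. Such a pattern arises where both mates of a pair are counted, but the counter is not given in the sources used here. Counting intervals below therefore take 2 reads, or 1 unpaired read, as 1 fragment, and they cover counting error only. Spreads given below as multiples of counting noise instead take each read as a separate count. Where both mates of a pair are counted, counting alone gives such a multiple of near 2, not 1.

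**Figure D1:**
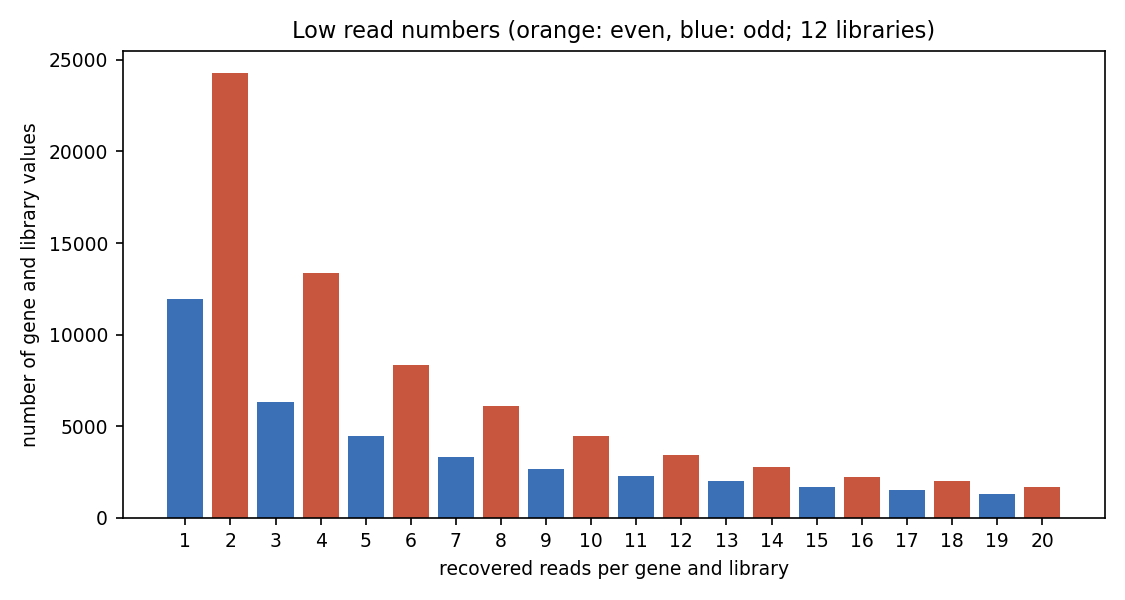
Number of gene and library values (vertical axis) at each recovered read number from 1 to 20 (horizontal axis), over all genes and 12 libraries, with even numbers in orange and odd numbers in blue. Each even bar stands above the odd bars beside it, with 24286 values of 2 reads against 11962 of 1 read.

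Of the 10 members, 6 (Ccl4, Cxcl10, Il1b, Ccl2, Il6 and Tnf) were near the detection floor, with no read in 4 to 10 of the 12 libraries, and 4 had a read in every library. Il18 was well detected, at a mean of 10.8 FPKM over all libraries, percentile 86.5 among the 34499 genes with a read, and it reached 1 FPKM in all 12 libraries. Ccl3 reached 1 FPKM in 5 of 12 libraries, and the other 8 members in 0. By mean FPKM, which allows for gene length, the order was Il18, Ccl3, Cxcl16, Il1a, Ccl4, Cxcl10, Il1b, Ccl2, Il6 and Tnf. In saline, Ccl3 and Cxcl16 differed by less than the SD of Ccl3. The means of the last 6 ran from 0.0682 FPKM for Ccl4 down to 0.00557 for Tnf, with SDs within groups of 0.0101 to 0.131 FPKM, so neighbours in that order did not differ beyond their spread.

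Lateral septum markers were all expressed and summed to 350 to 402 FPKM in saline and 318 to 380 FPKM in CFA. Without a library of another tissue to compare, these sums do not test the septal origin. Some libraries stood apart in other marker lists. Choroid plexus markers summed to 2348 FPKM in saline 3 and 736.0 in saline 5, beside 19.3 to 83.2 in the other 10 libraries. Markers of striatal neurons, from the nucleus beside the septum, summed to 236 FPKM in CFA 1, 178 in CFA 6, 124 in CFA 5 and 129 in saline 1, beside 72.3 to 91.5 in the other 8. Xist, the RNA of the inactive X chromosome in females, exceeded 1 FPKM in 2 of 6 saline but 5 of 6 CFA libraries.

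Of the members, 8 had a read in at least 6 of 12 libraries and were tested with limma on log2(FPKM + 1) among 25100 genes, and Tnf and Ccl2 were too sparse. Cxcl10 passed that filter with a read in 6 CFA libraries and 1 saline library, so it had to differ to be tested. With Benjamini-Hochberg adjustment over all genes tested, limma called 0 of the 8 members at an adjusted p under 0.05, where 0.0159% of all genes were called (4 genes: Ctss, Mpeg1 and Xlr3b higher, Wdfy1 lower). At an unadjusted p under 0.05, limma gave 2 members, Ccl3 and Cxcl10, both higher in CFA, where 3.33% of all genes were higher at that level. Voom, limma's weighting for counts, on the recovered reads called 5 genes and 0 members.

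An exact two-sided permutation test of RPM (recovered reads scaled to a library of 1 M reads) over all 924 assignments of the libraries, which needs no filter, gave the same 2 members at an unadjusted p under 0.05. At that level 2.81% of the 34499 genes with a read were higher in CFA, or 2.94% of the 12364 genes with a mean of 1 to under 60 reads. After adjustment the permutation test called 0 genes, with 1694 at an unadjusted p under 0.05 and a smallest adjusted p of 0.747. The 924 assignments allow no p under 0.00217, so over 34499 genes a call would need a great many genes tied at that floor. Adjusted permutation p-values, those of Ccl3 and Cxcl10 below included, are thus no evidence that a gene was unchanged. For Ccl3 and Cxcl10, 5 of 6 CFA libraries lay above every saline library, as they did for 0.962% of the 12364 low genes. The groups overlapped for all 10 members.

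**Figure D2:**
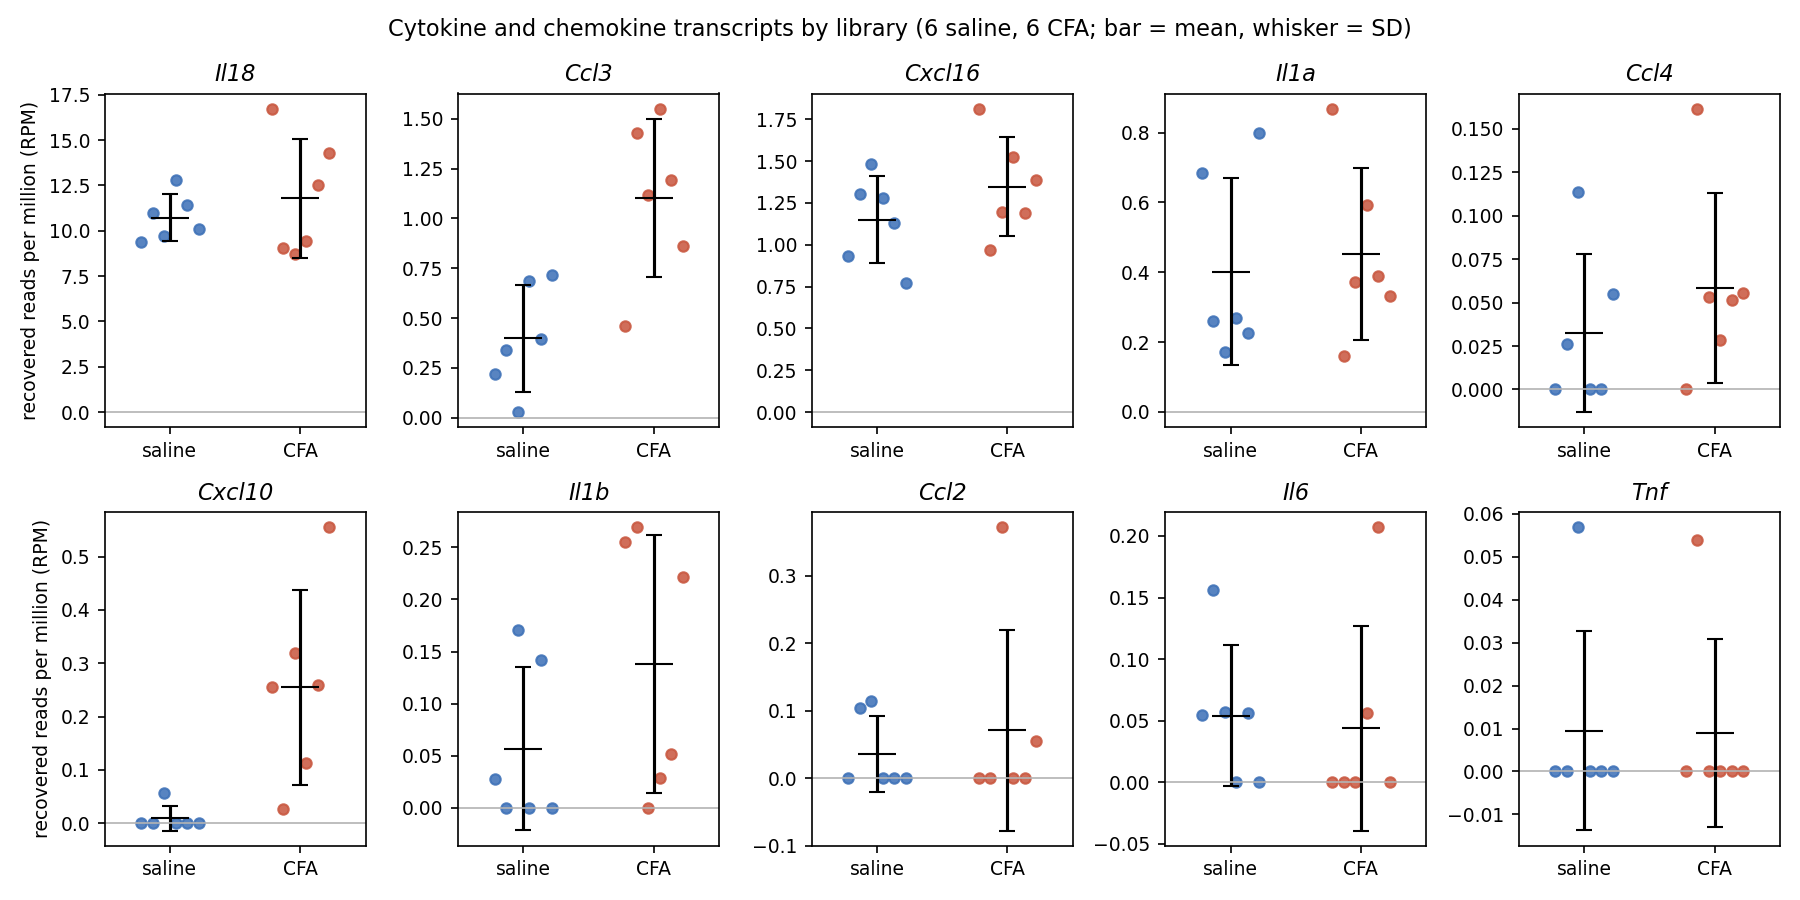
Recovered reads scaled to 1 M reads per library, RPM (vertical axes, each panel on its own scale) in each of 6 saline (blue) and 6 CFA (orange) libraries for the 10 members, ordered by mean FPKM, with the mean (bar) and SD (whisker). The groups overlap in every panel, and for Ccl3 and Cxcl10 5 of 6 CFA points lie above every saline point.

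The CC chemokine Ccl3, a ligand of CCR1 also known as MIP-1 alpha, had the smallest limma p of the 8 members tested, yet it did not pass the adjusted threshold. It had 1 to 26 reads per saline library with a median of 13.5, and 18 to 55 reads per CFA library with a median of 44. The low CFA library was CFA 1, which lay inside the saline range, and saline 3 was the lowest of all at 1 read. Its mean level was 0.519 ± 0.347 FPKM in saline against 1.43 ± 0.526 FPKM in CFA (SD, n = 6 each). The fragment ratio, CFA over saline at equal depth, was 2.71, with a 95% exact binomial interval of 1.91 to 3.91 that covers counting error only. The spread between libraries was 6.37 times counting noise in saline and 5.42 times in CFA, where the medians of 2364 genes with 20 to under 60 reads were 3.60 and 4.84.

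The log2 fold change of Ccl3 was 0.68 on the log2(FPKM + 1) scale (SE 0.18, 95% interval 0.29 to 1.06, limma adjusted p = 0.419), a scale that understates the change of low genes. On the recovered reads it was 1.78 (SE 0.54, voom adjusted p = 0.466). The exact permutation p was 0.00866 before and 0.846 after adjustment over 34499 genes. Without saline 3 and saline 5 the exact permutation p was 0.0333, over 210 assignments. Among libraries with Xist, 2 saline and 5 CFA, it was 0.0952, where the smallest p that 21 assignments allow is 0.0476. With Xist status as a covariate the log2 fold change was 0.69 (limma adjusted p = 0.639).

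Ccl4, or MIP-1 beta, the neighbour of Ccl3 on chromosome 11 and likewise a leukocyte attractant, was far lower per length. It had 0 to 4 reads in saline with a median of 0.5, and 0 to 6 reads in CFA with a median of 2. CFA 2 alone lay above the saline range. Its fragment ratio was 1.68 (95% interval 0.428 to 7.83) and its limma log2 fold change was 0.052 (SE 0.053, adjusted p = 0.898). Without CFA 2 that value was 0.012, without saline 3 it was 0.084, and among libraries with Xist it was 0.091. The interval of Ccl4 holds both no difference and the ratio seen for Ccl3, so unequal behaviour of these neighbours was not detectable at this depth. How reads that fit both of these similar genes were counted is not given in the sources used here.

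Ccl2, or MCP-1, the CCR2 ligand that draws monocytes, had 4 reads in saline 2 and in saline 3, 14 in CFA 3, 2 in CFA 6 and 0 in the other 8 libraries. The 14 reads of CFA 3 were most of the CFA total of 16, and the spread in CFA was 11.7 times counting noise. The fragment ratio was 1.92 (95% interval 0.515 to 8.72) and the exact permutation p was 0.879. Without CFA 3 the difference in RPM turned from 0.035 to -0.025.

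Among the CXC chemokines, Cxcl10, also known as IP-10 and induced by interferons, had the largest ratio of the 10 members, on 2 reads in all of saline. It had 0 reads in 5 saline libraries and 2 reads, perhaps 1 fragment, in saline 3. In CFA it had 1 to 20 reads, with a median of 10, and a read in every library. CFA 6 was highest, and CFA 2 with 1 read lay inside the saline range. The mean level was 0.00412 ± 0.0101 FPKM in saline against 0.111 ± 0.0784 FPKM in CFA (SD, n = 6 each).

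The totals for Cxcl10 were 1 fragment in saline and 29 in CFA, a ratio of 27.9 with a 95% interval of 4.62 to 1138 for counting error. The limma log2 fold change was 0.14 on the log2(FPKM + 1) scale (SE 0.041, adjusted p = 0.438), and with voom it was 3.48 (SE 0.84, adjusted p = 0.264), a value that depends on the prior count added to the libraries at 0. The exact permutation p was 0.00433 before and 0.803 after adjustment. Without saline 3 and saline 5 it was 0.0190, and among the libraries with Xist it was 0.143. With Xist status as a covariate the log2 fold change was 0.16 (limma adjusted p = 0.639).

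Cxcl10 lies wholly within Art3, an ADP-ribosyltransferase gene on the opposite strand. Art3 was at 0.490 ± 0.0902 FPKM in saline against 0.739 ± 0.260 FPKM in CFA (SD, n = 6 each), with 54 to 90 and 73 to 192 reads per library. Whether counting used the strand is not given in the sources used here, so reads of Art3 and Cxcl10 cannot be told apart where they overlap. The length used for Cxcl10, 2252 bases, is its whole span from 92346638 to 92348889, introns included.

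Cxcl16, the shed ligand of CXCR6, was detected in every library. It had 28 to 52 reads in saline with a median of 41.5, and 36 to 71 in CFA with a median of 48. CFA 1 and CFA 4 lay above every saline library, and the means were 0.380 ± 0.0840 and 0.441 ± 0.0961 FPKM (SD, n = 6 each). The fragment ratio was 1.18 (95% interval 0.923 to 1.51), and the limma log2 fold change was 0.062 (SE 0.057, adjusted p = 0.883). Without CFA 1 it was 0.033 and without saline 6 it was 0.035. The spread between its libraries was 2.13 times counting noise of single reads in saline and 2.49 in CFA. Counting both mates of a pair would alone give near 2. The medians for genes with 20 to under 60 reads were higher, at 3.60 and 4.84.

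**Figure D3:**
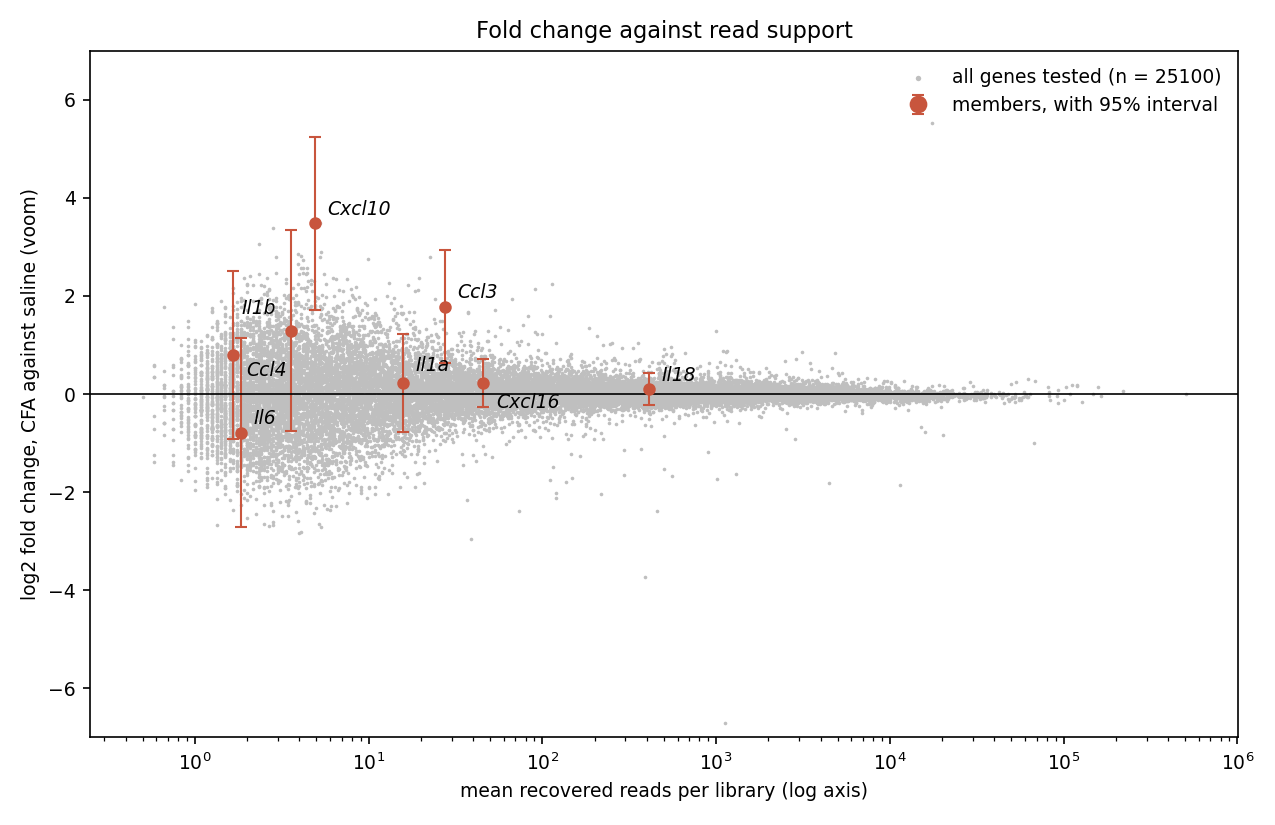
Log2 fold change of CFA against saline with voom (vertical axis) against the mean recovered reads per library (horizontal log axis) for 25100 genes (grey) and the 8 members tested (orange, with 95% interval). Fold changes fan out among low genes, Cxcl10 at 3.48 and Ccl3 at 1.78 have intervals above 0, and the intervals of the other 6 members include 0.

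Of the IL-1 family, Il18 was the only member of the 10 with over 300 reads in every library. It had 341 to 430 reads in saline with a median of 384, and 328 to 655 in CFA with a median of 409.5. CFA 1 (655 reads) and CFA 6 (514 reads) were above every saline library, CFA 5 (484 reads) was above it in reads but not in RPM, and CFA 2, 3 and 4 were at 328 to 335 reads. The CFA group was thus wider than the saline group, with a spread of 34.3 times counting noise against 5.34, where the medians of 1497 genes with 300 to under 500 reads were 7.53 and 5.18.

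The mean of Il18 was 10.4 ± 1.28 FPKM in saline against 11.3 ± 3.03 FPKM in CFA (SD, n = 6 each), and the limma log2 fold change was 0.082 (SE 0.14, adjusted p = 0.951). Its fragment ratio of 1.11 had an interval for counting error of 1.02 to 1.20, but the spread between libraries was far wider than counting error. CFA 1, 5 and 6, where Il18 was high, were also the CFA libraries with the most striatal neuron markers (236, 124 and 178 FPKM). Saline 1, with 129 FPKM of those markers, had 9.15 FPKM of Il18, the lowest saline value. With the mean of those markers as a covariate, the log2 fold change of Il18 was -0.065 (limma adjusted p = 0.959), without CFA 1 it was -0.018, without CFA 6 it was 0.030, and with Xist status as a covariate it was -0.031. The part of tissue make-up in the Il18 values was not tested beyond that.

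After subtracting group means, the genes closest to Il18 over the 12 libraries, of 13344 compared, were Gm3854 (Pearson r 0.949), Ddx42 (0.912) and Mrpl33 (0.909). These values come from libraries that share their tissue make-up and are a description only. Il18 overlaps Bco2 (1.04 ± 0.226 and 1.19 ± 0.374 FPKM) and Tex12 (0.0627 ± 0.0598 and 0.0392 ± 0.0725 FPKM) on the opposite strand (SD, n = 6 each).

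Il1a, the IL-1 ligand released from damaged cells, had 6 to 29 reads in saline with a median of 9.5, and 6 to 34 reads in CFA with a median of 14.5. The high libraries were saline 1, saline 6 and CFA 1, so the groups overlapped almost fully. Its means were 0.204 ± 0.136 and 0.227 ± 0.123 FPKM (SD, n = 6 each), the fragment ratio was 1.11 (95% interval 0.731 to 1.69) and the limma log2 fold change was 0.029 (SE 0.080, adjusted p = 0.972). Without saline 3 and saline 5 it was -0.032, without CFA 1 it was -0.017, and among libraries with Xist it was 0.13. Gm14023 overlaps Il1a by 8217 bases on the opposite strand, with 3 to 16 reads in saline and 2 to 15 in CFA, and the strand setting is unknown here too.

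Il1b, the secreted IL-1 ligand that caspase-1 activates, was at 0 to 6 reads in saline with a median of 0.5, and at 0 to 10 reads in CFA with a median of 5. It had a read in 3 saline and 5 CFA libraries, and CFA 1, 2 and 6 lay above every saline library. Saline 3 and saline 5, the libraries rich in choroid plexus transcripts, held 6 and 5 of the 12 saline reads. The totals were 7 fragments in saline and 16 in CFA, a ratio of 2.20 (95% interval 0.855 to 6.31). The exact permutation p was 0.21, and the limma log2 fold change was 0.056 (SE 0.041, adjusted p = 0.850). The ratio of 2.20 could not be told from no difference with these few reads and the spread between libraries. That spread was 3.91 times counting noise in saline and 4.14 times in CFA. Without saline 3 and saline 5 the difference in RPM went from 0.081 to 0.13, with an exact permutation p of 0.0571, and the log2 fold change was 0.092 (limma adjusted p = 0.759). Il1bos, on the opposite strand over 1243 bases of Il1b, had 0 to 6 reads in saline and 2 to 10 in CFA, so reads of this pair cannot be told apart there.

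Tnf, a cytokine of activated macrophages and microglia, gave 2 reads in saline 3, 2 reads in CFA 2 and 0 in the other 10 libraries. Each group total of 1 fragment has an exact Poisson interval of 0.0253 to 5.57 fragments, and the ratio of 0.961 has a 95% exact binomial interval of 0.0122 to 75.4. Without saline 3 the difference in RPM was 0.0090 and without CFA 2 it was -0.0095, so 1 library set its sign.

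Il6, which signals through the shared receptor chain gp130 (Il6st), had 0 to 6 reads in saline with a median of 2, and 0 to 8 reads in CFA with a median of 0. It had a read in 4 saline libraries but in 2 CFA libraries, CFA 4 and CFA 5. The totals were 6 and 5 fragments, a ratio of 0.801 (95% interval 0.193 to 3.15). The limma log2 fold change was -0.0066 (SE 0.026, adjusted p = 0.983), and without saline 2, the highest saline library, it was 0.0052.

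The regulators of the IL-1 family and inflammasome were described next, from a list of 12 genes. Of the 11 tested, 9 had a positive log2 fold change and 2 a negative one, with a median of 0.065, beside 12772 positive of 25100 genes and a median of 0.0016. Limma called 0 of them, with 2 at an unadjusted p under 0.05, and voom called 0. Of all genes tested, 6.82% were at that level in either direction, the share to set beside this count and those of the lists below. Aim2, a sensor of cytosolic DNA, was at 0.633 ± 0.145 FPKM in saline and 0.999 ± 0.307 in CFA (limma adjusted p = 0.647). Nek7, the kinase that NLRP3 needs to assemble, was at 5.30 ± 0.764 and 6.15 ± 0.679 FPKM (adjusted p = 0.730).

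Il18bp, the soluble decoy that binds interleukin 18, was at 1.20 ± 0.319 FPKM in saline against 1.66 ± 0.479 in CFA (SD, n = 6 each, limma adjusted p = 0.741). The alarmin Il33 was at 9.52 ± 3.49 and 12.5 ± 3.39 FPKM (adjusted p = 0.783). Txnip, which can bind NLRP3, was the other well expressed gene of the list, at 7.86 ± 0.979 and 8.07 ± 1.13 FPKM. Il1rn, the IL-1 receptor antagonist, was at the floor, at 0.00833 ± 0.0133 and 0.0142 ± 0.0182 FPKM.

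Of 16 receptors of the members, 14 were tested, with 8 positive and 6 negative log2 fold changes, a median of 0.0053 and 0 called by limma or voom, with 3 at an unadjusted p under 0.05. Ccr1, which encodes a receptor of CCL3, was at 0.0498 ± 0.0345 FPKM in saline against 0.161 ± 0.0996 in CFA (log2 fold change 0.14, limma adjusted p = 0.637). Ackr2, a scavenger of CC chemokines, was at 0.0892 ± 0.0428 and 0.179 ± 0.0955 FPKM (adjusted p = 0.730).

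Tnfrsf1a, the main TNF receptor, was at 5.12 ± 0.442 FPKM in saline against 4.79 ± 0.388 in CFA (SD, n = 6 each, adjusted p = 0.853). The most abundant of the receptors were Ackr1, at 19.8 ± 2.14 and 18.5 ± 2.39 FPKM, and Il6st, at 12.7 ± 0.768 and 12.9 ± 1.87 FPKM. The receptors for TNF and IL-6 signals were thus well above their ligands per length. Cxcr3, the receptor of CXCL10, was at 0.0162 ± 0.0270 and 0.0104 ± 0.0254 FPKM, and Il18r1 at 0.00190 ± 0.00465 and 0.00558 ± 0.0137 FPKM, both too sparse to test.

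The proteases and partners that shed TNF and CXCL16 were expressed at similar levels in both groups. Of 5 tested, 2 had a positive and 3 a negative log2 fold change (3 and 2 after rescaling to TPM), and limma and voom called 0, with 0 at an unadjusted p under 0.05. Adam10, which sheds CXCL16, was at 24.8 ± 1.29 FPKM in saline and 25.6 ± 2.19 in CFA. Adam17, the TNF-converting enzyme, was at 3.35 ± 0.254 and 3.22 ± 0.311 FPKM, and its inhibitor Timp3 at 10.9 ± 1.04 and 10.7 ± 1.13 FPKM (SD, n = 6 each).

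Of 31 other chemokines, 20 were tested and 3 (Ccl19, Cxcl2 and Cxcl15) had no read in any library. Of the 20, 11 were positive and 9 negative (13 and 7 as TPM), the median log2 fold change was 0.0091 and 0 were called by limma or voom, with 2 at an unadjusted p under 0.05. Those 2 were constitutive chemokines with lower means in CFA. Cxcl14 was at 128 ± 9.64 FPKM in saline against 105.5 ± 8.52 in CFA (log2 fold change -0.28, SE 0.064, limma adjusted p = 0.327). Ccl28, an epithelial chemokine, was at 0.836 ± 0.346 and 0.431 ± 0.144 FPKM (log2 fold change -0.34, SE 0.12, adjusted p = 0.576).

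Cx3cl1, the neuronal ligand of the microglial receptor CX3CR1, was the most abundant chemokine, at 149.5 ± 8.16 FPKM in saline against 144.8 ± 11.6 in CFA (SD, n = 6 each). Ccl12, a CCR2 ligand of the mouse, was at 0.291 ± 0.310 and 0.676 ± 0.510 FPKM (limma adjusted p = 0.795), and the platelet chemokine Pf4 was at 0.574 ± 0.151 and 0.398 ± 0.260 FPKM (adjusted p = 0.802). Ccl17, named after its values were seen, had 16 to 31 reads in saline and 13 to 22 reads in 4 CFA libraries, but 114 in CFA 1 and 92 in CFA 5.

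**Figure D4:**
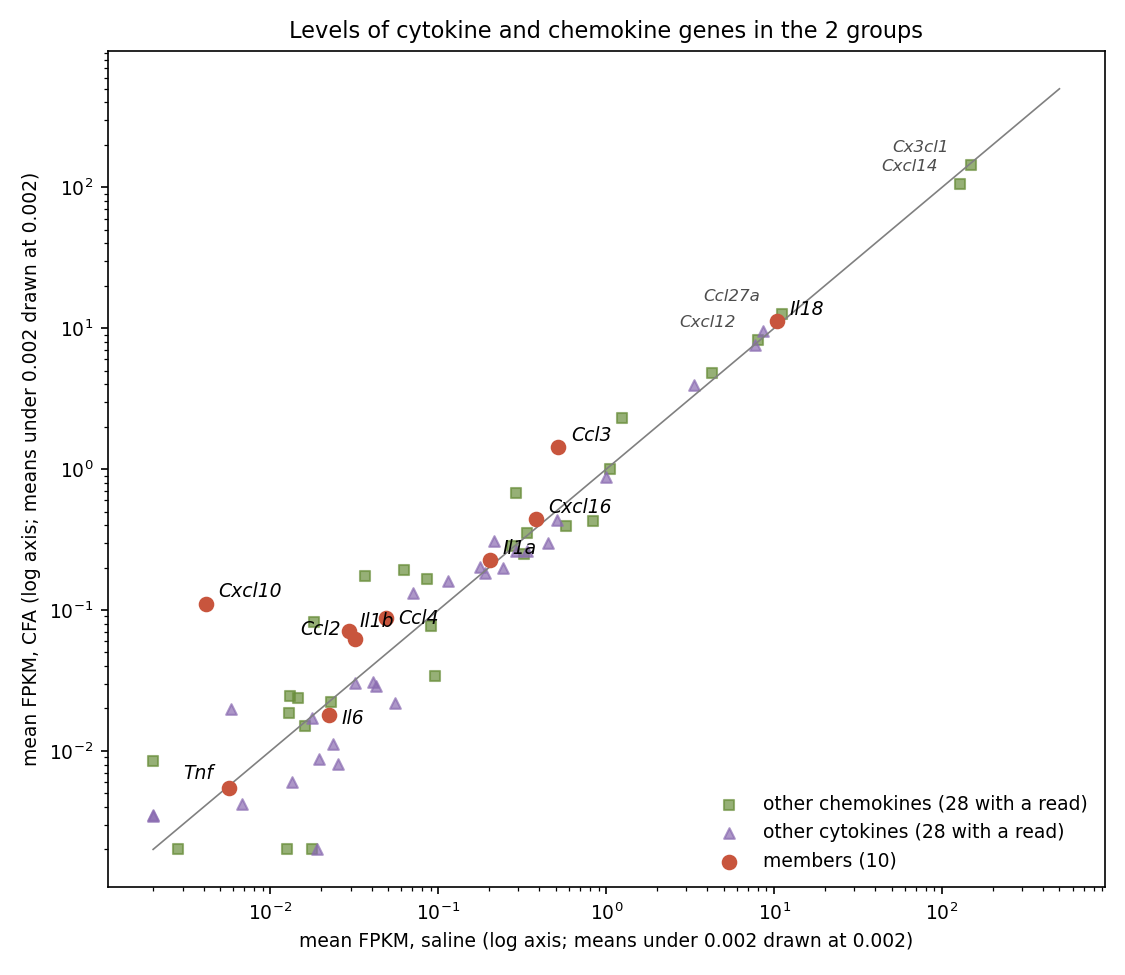
Mean FPKM in saline (horizontal log axis) and CFA (vertical log axis) of the 10 members (orange circles), 28 other chemokines (green squares) and 28 other cytokines (purple triangles) with a read, where means under 0.002 are drawn at 0.002 and the line marks equal means. Il18, near 10 FPKM, stands with the constitutive chemokines, and the other members lie below 2 FPKM. Of the 10 members, 8 lie above the line, Cxcl10 farthest, and Tnf and Il6 lie below it.

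Of 34 other cytokines, 19 were tested and 6 (Il3, Il10, Il12b, Il17a, Il24 and Csf2) had no read. Of the 19, 6 were positive and 13 negative (9 and 10 as TPM), the median log2 fold change was -0.017, and 0 were called by limma or voom, with 2 at an unadjusted p under 0.05. Csf1, a growth factor for microglia, was at 3.32 ± 0.209 FPKM in saline and 3.97 ± 0.656 in CFA (limma adjusted p = 0.727). Il34, the other ligand of the CSF1 receptor, was at 8.59 ± 2.09 and 9.51 ± 2.52 FPKM. Tnfsf10, or TRAIL, was at 0.448 ± 0.0997 and 0.301 ± 0.134 FPKM (adjusted p = 0.727). The subunit Il12a was at 0.0702 ± 0.0530 and 0.132 ± 0.0704 FPKM, and Osm at 0.0554 ± 0.0388 and 0.0218 ± 0.0268 FPKM, with adjusted p of 0.790 and 0.820. Il4 was listed at 7.72 ± 0.527 and 7.61 ± 1.21 FPKM (SD, n = 6 each).

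Among 18 other genes known as NF-kB targets, 17 were tested, 11 positive and 6 negative. Their median log2 fold change was 0.015, with 0 called by limma or voom, with 1 at an unadjusted p under 0.05. That was Lcn2, the secreted iron-binding protein lipocalin 2, at 0.101 ± 0.113 FPKM in saline and 0.277 ± 0.137 in CFA (limma adjusted p = 0.643). Nfkbia, the inhibitor that NF-kB itself induces, was at 12.6 ± 1.54 and 14.6 ± 2.92 FPKM (adjusted p = 0.802). The mitochondrial Sod2 was at 20.04 ± 0.749 and 19.1 ± 0.744 FPKM (adjusted p = 0.781), Tnip1 at 8.22 ± 0.429 and 7.64 ± 0.592 FPKM, and Traf1 at 0.386 ± 0.0965 and 0.522 ± 0.146 FPKM, the last pair both with an adjusted p of 0.783.

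The proteins that bind AU-rich elements or degrade cytokine mRNAs were all expressed. Of 10 tested, 5 were positive and 5 negative (8 and 2 as TPM), the median was 0.016, and limma and voom called 0, with 2 at an unadjusted p under 0.05. Zc3h12a (Regnase-1), an RNase that cleaves Il6 mRNA, was at 0.267 ± 0.0954 FPKM in saline against 0.417 ± 0.102 in CFA (log2 fold change 0.16, limma adjusted p = 0.668). Zfp36 (TTP), which drives decay of Tnf mRNA, was at 0.972 ± 0.154 and 1.22 ± 0.166 FPKM (log2 fold change 0.17, adjusted p = 0.701). Zfp36l2 was at 11.3 ± 1.49 and 10.3 ± 1.24 FPKM (adjusted p = 0.846), Tial1 at 13.3 ± 1.10 and 14.1 ± 1.91 FPKM (adjusted p = 0.904), and the most abundant of the list were Khsrp, at 23.5 ± 0.951 and 23.3 ± 0.533 FPKM, and Hnrnpd, at 22.0 ± 1.11 and 22.8 ± 2.13 FPKM.

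Markers of the cells that could make these transcripts were read beside them. The 10 microglia markers summed to 83.0 to 96.7 FPKM in saline, to 67.6 to 71.0 in CFA 2, 3, 4 and 6, and to 92.9 and 94.8 in CFA 1 and CFA 5. Of these markers 8 had a negative log2 fold change (7 as TPM), led by Cx3cr1, at 9.10 ± 0.737 FPKM in saline against 3.18 ± 2.13 in CFA (SD, n = 6 each), with an adjusted p of 0.185 in limma and 0.0211 in voom. From CFA 1 to CFA 6 in turn, the sums were 92.9, 71.0, 68.3, 70.2, 94.8 and 67.6 FPKM. In the same order, the Ccl3 reads were 18, 53, 42, 55, 46 and 31. The part of microglia in the Ccl3 values was not tested.

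Monocyte markers summed to 2.57 to 2.84 FPKM in saline and 3.00 to 3.60 in CFA, but nearly all of that was Vcan (2.64 ± 0.0979 and 3.02 ± 0.247 FPKM), which other brain cells also express. The more specific Ly6c2 was at 0 to 2 reads in saline and 0 to 12 in CFA, Ccr2 at 2 to 10 and 0 to 16, and Chil3 at 0 to 3 and 0 to 6. Neutrophil markers summed to 0.0824 to 1.72 FPKM in saline and 0.192 to 0.931 in CFA, and the defining Ly6g had 2 reads in saline 2 and 0 in the other 11 libraries. Lymphocyte markers summed to 0.307 to 0.602 and 0.0731 to 0.474 FPKM. Erythroid markers, from blood in the tissue, summed to 157 to 333 FPKM in saline and 78.9 to 668 in CFA, with medians of 217 and 468. CFA 1, 2, 4 and 5 lay above every saline library, CFA 3 lay inside the saline range and CFA 6 below it. The part of any of these cells in the Ccl3 and Cxcl10 values was not tested.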

How the data were processed

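Libraries were made from 0.2 µg of Trizol-extracted RNA and sequenced as 150-base pairs, per the labels' protocols. Alignment used HISAT2 2.0.5 and mm10, per the submitters' processing notes. The sources used here do not name the counter, its strand setting or the annotation. FPKM values were deposited per gene and library with a gene length, and 6 further per-sample columns matched no sample and were not used. In all 12 libraries the FPKM divisor equalled, within a relative 1e-06, a median-ratio size factor (0.920 to 1.09, over 19107 genes) times the geometric mean depth, so the deposited FPKM already carried that scaling.

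Groups came from the labels. Genes above 0 FPKM in at least 6 libraries were tested with limma 3.58.1 (R 4.3.3), two-sided, on log2(FPKM + 1) computed from the values the authors deposited, with a mean-variance trend and Benjamini-Hochberg adjustment, threshold 0.05. RPM of recovered reads were compared by an exact permutation test of the difference of means. Fragment ratios allow for depth, with 95% exact intervals. Alternatives covered pseudocount, filter, scaling, voom, a replicate block, covariates and left-out libraries. The main limma fit and the main permutation test were tested on simulated data, and the alternatives, voom among them, were not. The members, gene lists, tests and alternatives were chosen with earlier results of these data known. Genes named from a pathway list were up to 4 with the smallest limma p and the 2 with the highest mean FPKM, and a few more are named as ligands, receptors or targets of the members or after their values were seen. 1 item that this rule names is not reported here. Sequences came from RefSeq (GRCm38.p6) and GENCODE M21, and Python 3.11.15, numpy 2.4.6, scipy 1.17.1, pandas 2.3.3 and matplotlib 3.10.9 were used.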

Additional observations from a re-analysis of the deposited data

Results flagged for a closer look

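In 7 cases 1 library lay farther from the other 5 of its group than a gap test at 95% allows, a test that chance trips in about 1 of 20 groups of normally distributed values. Where 5 libraries are at 0 and 1 is not, as for Tnf in both groups and Cxcl10 in saline, the test is met by construction. For Tnf and for Cxcl10 in saline the gap rests on 2 reads, perhaps 1 fragment. All 7 cases were members near the detection floor. They were Tnf in saline 3 (0.0569 RPM) and in CFA 2 (0.0539), Il6 in saline 2 (0.156) and in CFA 5 (0.207), Ccl2 in CFA 3 (0.372), Ccl4 in CFA 2 (0.162) and Cxcl10 in saline 3 (0.0569). The 14 Ccl2 reads of CFA 3 are the case with the most reads, and that gap does not rest on 1 fragment. Saline 3, where the single saline Cxcl10 value and a Tnf value lay, is also the library richest in choroid plexus transcripts, at a marker sum of 2348 FPKM. The part of that tissue in these values was not tested.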

How the results depend on the processing

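Under all 24 alternatives limma called 0 members. The count of genes called, 4, was 2 without the filter, 2 with Xist status as a covariate, 1 with the mean of the striatal list as covariate, 0 among libraries with Xist, and 1 with a replicate block. Leaving out 1 library gave 1 to 13 genes, with 13 without saline 3, 7 without CFA 4, and 1 without saline 1, 5 or 6 or CFA 2 or 6. The members with a permutation p under 0.05, 2 in all, were 0 among libraries with Xist, where 21 assignments allow no p under 0.0476. Of the log2 fold changes, those of Ccl3 (0.56 to 1.78), Cxcl10 (0.11 to 3.48), Il1b, Ccl4 and Cxcl16 kept their sign under all 23 alternatives. For Cxcl10, with 2 reads in saline against 57 in CFA, rescaling or leaving out 1 library could hardly turn the sign. Its kept sign is therefore no further support. Il1a turned to -0.032 without saline 3 and 5 and to -0.016 with the striatal covariate, and ran from -0.017 to 0.075 over single libraries left out. Il18 turned to -0.065 with the striatal covariate and to -0.031 with the Xist covariate, and ran from -0.018 to 0.15 over single libraries left out. Over single libraries left out, Il6 ran from -0.025 to 0.0052, and with voom it was -0.78. In RPM, Tnf turned to 0.0108 among libraries with Xist and to 0.00898 without saline 3 and 5, and ran from -0.00949 to 0.00898 over single libraries left out, with 0.00129 in 5 of those cases. Ccl2 turned to -0.041 among libraries with Xist and ran from -0.025 to 0.050 over single libraries left out. The causes were not tested. The covariates and scaling to summed depth were chosen after seeing the data. Median-ratio scaling and the replicate block gave the main log2 fold changes again, so neither could turn a sign.

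Replicate numbers showed no clear pairing: deviations of same-numbered libraries correlated at -0.014 to 0.105, and 2 of 6 libraries were closest to their own number. Such a check over all genes cannot exclude a weak pairing beneath the differences in tissue make-up. The replicate block is therefore only an alternative. Depth limits Tnf, Il6, Ccl2, Ccl4 and Il1b, with 1 to 16 fragments per group, to ratios whose intervals span 0.0122 to 75.4 for Tnf and 0.855 to 6.31 for Il1b. It likewise limits Cxcl10, with 1 fragment in saline, to a ratio interval of 4.62 to 1138.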
